A study of Homo sapiens with 8 samples.

Results

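The 620 regions described here are merged gene regions with a 3′ untranslated region (3′ UTR) of at least 5000 nt, out of 20165 regions in the deposited ribosome footprint counts. They were chosen by 3 properties: the 3′ UTR length, a coding length over 450 and under 6000 nt, and at least 400 coding footprints summed over the 8 libraries, leaving out symbols that start with ZNF or SLC. The same coding length, footprint minimum and symbol filter with a 3′ UTR of 1 to 500 nt gave 1899 short 3′ UTR regions for comparison. Footprints were profiled in OVCAR3, an established human ovarian cancer line, in 4 groups of 2 libraries each. In siControl and siTARG1 cells, 30 nM of a control siRNA or of siRNA against OARD1, which encodes the ADP-ribose hydrolase TARG1, had been transfected 48 h earlier. In RACK1-WT and RACK1-Mut cells, 1 µg/ml doxycycline for 48 h drove both a short hairpin RNA against the cells' own RACK1 and the re-expression of RACK1, either wild type or with its mono-ADP-ribosylation sites mutated, so both of these groups carry the knockdown. RACK1 sits on the small ribosomal subunit as one of its proteins. The comparisons asked which mRNAs differ in ribosome footprints when TARG1 is depleted and when the modified sites of RACK1 are lost.

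A 3′ UTR is the stretch of an mRNA between the stop codon and the poly(A) tail, and ribosomes that end translation normally do not enter it. It holds binding sites for proteins and for small RNAs. A microRNA or siRNA bound to an Argonaute protein pairs through its seed, the bases near its 5′ end, with matching letters in a target, and TNRC6 proteins then recruit deadenylases and decapping enzymes that silence the mRNA. Longer 3′ UTRs have room for more such matches, and long ones are common among mRNAs of regulators such as transcription factors, kinases and ubiquitin ligases.

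Of the 620 members, 581 carried 1 gene symbol, 34 joined transcripts of more than 1 symbol and 5 matched no symbol. Their 3′ UTRs had a median length of 6433 nt and ran from 5002 nt in MRPS23 to 32870 nt in SMAD2, a mediator of TGF-beta signalling. The other members with the longest 3′ UTRs were GNAI3 (25999 nt), a region without a symbol (25138 nt), the kinase gene RPS6KA5 (24190 nt) and the ubiquitin ligase gene ARIH1 (19693 nt). Reading the annotated 3′ UTR bases from GRCh37 gave a length at most 20% under or 25% over the deposited one for 586 members (94.5%) and 1542 short 3′ UTR regions (81.2%), and sequence statements below refer to these. The 3′ UTRs of members had a median GC content of 39.0%, against 47.1% in the short ones, and their coding sequences 48.1% against 55.1%.

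Among the 620 members, short words of 7 letters were counted on the mRNA strand. One set was TGAACAT or GAACATA and the other TGAATAT or GAATATA; in each set, overlapping matches counted as 1 site, and both words together make the 8-letter TGAACATA or TGAATATA. Both sets were named by an earlier analysis of these data, in which they were picked for how footprints differed in siTARG1 cells, so what follows about them is a description and no independent support. The sequences of the siRNAs were not given in the sources used here, and whether either set pairs with them was not tested. The windows below show 30 bases of the 3′ UTR around 1 site in members that lie at the ends of the siTARG1 comparison, with the matched word in capitals, its position on GRCh37 and the mRNA strand. The first set is shown in members that had fewer footprints in siTARG1 cells, 4 of which (TNRC6B, NUCKS1, KPNA4 and ERBB4) also hold the second. In ERBB4 the second set is present as the full TGAATATA. CPM, which also fell and is not shown, holds both sets, the second likewise as the full TGAATATA.
PTBP3, chr9:114984127-114984156, minus strand: agtgattaattTGAACATAgggaggttttt
TNRC6B, chr22:40725508-40725537, plus strand: ccaagaatctgTGAACATAgtaataacaat
NUCKS1, chr1:205685625-205685654, minus strand: aatacaggactTGAACATAaatagcagttg
FAM199X, chrX:103435615-103435644, plus strand: gtttgttatcaTGAACATtagaaatagcat
KPNA4, chr3:160217125-160217154, minus strand: aactgtcttttTGAACATtgagaccacctc
ERBB4, chr2:212248162-212248191, minus strand: cttacctaactTGAACATtagagggaaaga

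The second set, which differs from the first by a single letter, is shown in members that had more footprints in siTARG1 cells, of which LPP and DCP2 also hold the first.
SETD7, chr4:140428689-140428718, minus strand: tcatgatagaaTGAATATAtttaaatgaag
CREBRF, chr5:172564383-172564412, plus strand: tggatggtcttTGAATATAggggggaaaga
LPP, chr3:188606253-188606282, plus strand: ttccccagctcTGAATATAgccatttgccg
DCP2, chr5:112349737-112349766, plus strand: agcagcttctgGAATATAatgtgcatgtcc
LRRC58, chr3:120047768-120047797, minus strand: tttgcatataaGAATATAgatgtataccac

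Coding footprints summed to between 3100947 and 6604190 per library over all regions. OARD1 had 121 and 69.1 normalised coding footprints in siControl and 5.83 and 6.75 in siTARG1 libraries, a log2 fold change of -3.94, in the direction of its label. RACK1 had 23334 and 23594 in RACK1-WT and 17745 and 17274 in RACK1-Mut libraries, a log2 fold change of -0.42 (DESeq2 adjusted p = 1.34e-08). These counts cannot tell the re-expressed from the endogenous gene, and the groups thus differ in RACK1 footprints as well as in its sites. In siTARG1 cells RACK1 was lower too (log2 fold change -0.25, DESeq2 adjusted p = 0.00297). Of 12 marker genes of OVCAR3-type epithelium, 11 had at least 10 coding footprints in every library, led by MUC16, KRT8 and KRT18, and CLDN4 was at 0 throughout. Leukocyte markers summed to between 0 and 2 footprints and endothelial markers to between 2 and 15. Fibroblast markers summed to between 81 and 251, mostly COL1A1, while DCN was at 0 in 7 of the 8 libraries. Each group has 2 libraries, which the methods describe as independent biological samples.

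The members held a small share of all coding footprints. It was 4.63% and 4.67% in siControl and 4.68% and 4.69% in siTARG1 libraries. It was 4.87% and 4.75% in RACK1-WT and 5.01% and 4.94% in RACK1-Mut libraries. The groups did not overlap, by little. Without mitochondrial genes and the 10 regions with most counts, however, the siRNA groups overlapped, at 4.90% and 4.94% in siControl and 4.91% and 4.92% in siTARG1 libraries. In any case, with 2 against 2 libraries a two-sided exact permutation test can give no p below 0.333. Per length of coding sequence, the median level of a member was 21.7 to 25.5 footprints per kb of coding sequence over the 8 libraries, scaled to 1000000 coding footprints per library, below the 35.3 to 37.5 of short 3′ UTR regions. The members with most footprints per kb of coding sequence included RPL14, a ribosomal protein gene, NUCKS1, a nuclear DNA-binding protein gene, and 3 regions that join several symbols, among them SKP1, RPL17 and RPS10. Counts of RPL14, RPL17 and RPS10 are uncertain because near-identical copies exist and reads could map to many places.

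Few footprints lay in the long 3′ UTRs. Per 100 coding footprints of the members there were 0.792 and 0.802 in siControl, 0.722 and 0.813 in siTARG1, 0.544 and 0.669 in RACK1-WT, and 0.598 and 0.631 in RACK1-Mut libraries. The groups overlapped in both comparisons. As the median over members, the values were 0.360 and 0.447 in RACK1-WT and 0.297 and 0.346 in RACK1-Mut libraries, without overlap and lower in RACK1-Mut. The RACK1-WT libraries were deeper, with 6604190 and 6174010 coding footprints against 4174707 and 3798750 in RACK1-Mut libraries. With few 3′ UTR footprints per member, such a median can shift with depth, which was not tested. The medians were 0.364 and 0 in siControl and 0.340 and 0.168 in siTARG1 libraries, with overlap. Short 3′ UTR regions had 0.168 to 0.267 per 100 coding footprints, but per kb of 3′ UTR, on the same scale of 1000000 coding footprints, they had 0.906 to 1.41 against 0.0570 to 0.0821 in the members. A total of 15 members had no 3′ UTR footprint in any library and 327 had under 10 in all 8 together. At the other end, a region that joins NGRN with an unnamed gene held 5.34% of all 3′ UTR footprints of members, at 73.5 per 100 of its coding footprints, and MEIS1, a homeobox transcription factor gene, held 3.45%.

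**Figure D1:**
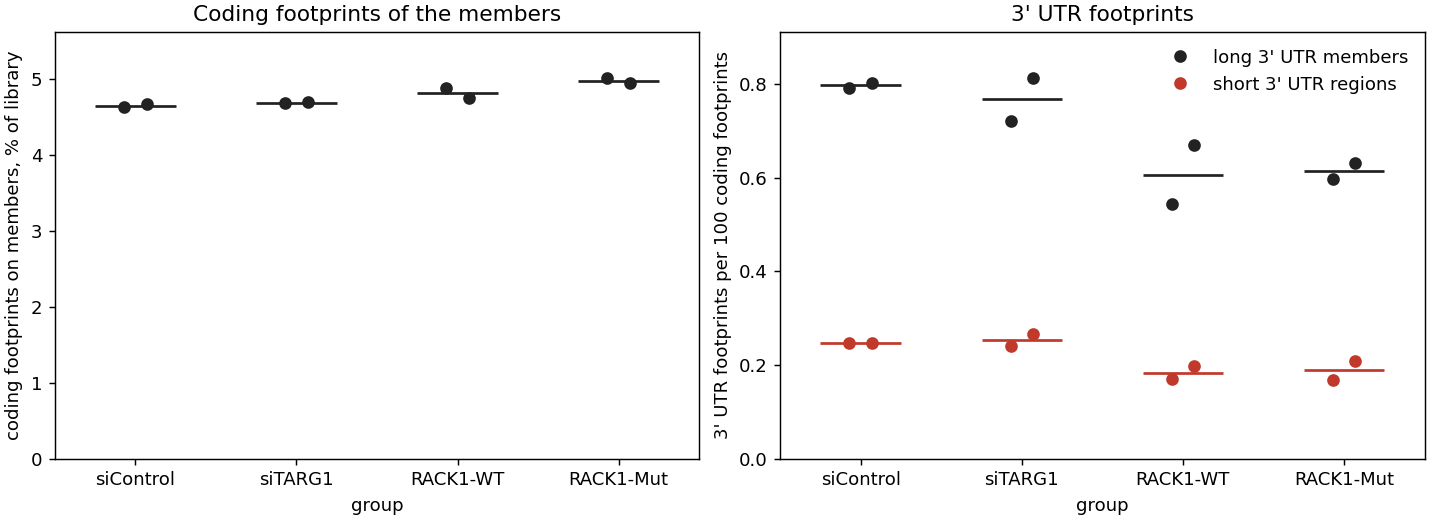
Left, coding footprints on the 620 members as a percent of all coding footprints of a library; right, 3′ UTR footprints per 100 coding footprints for members (black) and short 3′ UTR regions (red). Points are libraries and lines are means of 2; members lie between 4.63% and 5.01% on the left and above the short 3′ UTR regions in every library on the right.

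Depletion of TARG1 went with changed footprints on many long 3′ UTR members, in both directions. All 620 members passed the minimum of 10 counts, and 619 received an adjusted p, against 11121 of the 12056 regions tested. DESeq2 called 176 of the 620 members (28.4%) at an adjusted p under 0.05, against 16.4% of the 12056 regions tested. That background is not matched in depth, since regions enter it from 10 summed counts while members have at least 400 over the 8 libraries. Shares within classes of footprints are given further below. Of the 176 members, 82 rose (13.2% of the 620, against 7.18% of all tested) and 94 fell (15.2%, against 9.19%). The count depended on the fit: edgeR called 266 members (42.9%, against 28.8% of all regions), DESeq2 with a replicate block 113 (18.2% against 9.33%), and DESeq2 without 1 library 65 without siControl replicate 1, 80 without siControl replicate 2, 66 without siTARG1 replicate 1 and 68 without siTARG1 replicate 2 (10.5% to 12.9%, against 4.79% to 6.26%). Among short 3′ UTR regions, 114 rose and 214 fell of 1898 tested (17.3% in all). The median log2 fold change of members was 0.0025, that of all regions 0.0031 and that of short 3′ UTR regions -0.041. The median of members thus lay next to that of all regions, and their values spread more widely than those of short 3′ UTR regions: the median absolute log2 fold change was 0.35 in members, 0.33 over all regions and 0.25 in short 3′ UTR regions. A change of at least 1 on the log2 scale was called in 74 members (11.9%), 55 short 3′ UTR regions (2.90%) and 659 of all regions (5.47%). Whether fewer footprints reflect less mRNA or less translation cannot be told apart from footprints alone.

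Members with large falls came from several branches of cell biology. TNRC6B, the scaffold of small RNA silencing, had 304 and 281 normalised footprints in siControl and 84.1 and 107 in siTARG1 libraries, a log2 fold change of -1.63 (SE 0.22, DESeq2 adjusted p = 6.27e-12). KPNA4, an importin alpha that carries proteins into the nucleus, fell from 730.4 and 762 to 211 and 209, a log2 fold change of -1.83 (SE 0.14, DESeq2 adjusted p = 6.54e-35). NUCKS1 fell from 1322 and 1382 to 449 and 441 (log2 fold change -1.60, SE 0.11). In these genes the siTARG1 libraries lay close together and far below the controls. The mitochondrial gene SDHC, which encodes a membrane anchor of succinate dehydrogenase, fell from 982 and 961 to 305 and 310.4 (log2 fold change -1.66, SE 0.12). ERBB4, a receptor tyrosine kinase of the EGFR family, fell from 282 and 275 to 75.7 and 84.3 (log2 fold change -1.81, SE 0.22). PTBP3, a splicing regulator, fell from 379 and 353 to 117 and 117 (log2 fold change -1.65, SE 0.19). The others among the 10 largest falls with a mean of at least 100 normalised footprints were CPM (-2.10), a membrane carboxypeptidase, FAM199X (-1.94), AAK1 (-1.67), a kinase of clathrin adaptors, and SFT2D2 (-1.65). Their adjusted p-values from DESeq2 ran from 2.77e-46 for NUCKS1 to 2.34e-11 for CPM.

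The rises and falls ranked here are among called members with a mean of at least 100 normalised footprints and groups that do not overlap. Within these, the 10 largest rises ran from 2.74 to 1.07 on the log2 scale, against -2.10 to -1.60 for the 10 largest falls. Over all 620 members the values ran from -2.81 to 3.18. SETD7, a protein lysine methyltransferase, had 30.8 and 33.4 normalised footprints in siControl and 214 and 213 in siTARG1 cells, a log2 fold change of 2.74 (SE 0.29, DESeq2 adjusted p = 1.12e-18). DCP2, the catalytic subunit of the mRNA decapping enzyme, rose from 29.9 and 48.9 to 226 and 265, a log2 fold change of 2.67 (SE 0.28, DESeq2 adjusted p = 1.20e-18). EGFR, the receptor of epidermal growth factor, rose from 338 and 319 to 813 and 921 (log2 fold change 1.39, SE 0.13). EGFR thus moved opposite to its relative ERBB4, and the controls and siTARG1 libraries of both genes were well separated. CREBRF, a regulator of CREB3 proteins, rose from 66.8 and 60.8 to 188 and 189 (log2 fold change 1.56, SE 0.26). LPP, a focal adhesion protein gene with a 3′ UTR of 16192 nt, rose from 72.9 and 101 to 206 and 238 (log2 fold change 1.36, SE 0.25). The others among the 10 largest rises were LRRC58 (1.83), PREX2 (1.75), an exchange factor for Rac, EXOC5 (1.16), an exocyst subunit, SCO1 (1.15), a copper chaperone of cytochrome c oxidase, and RCN2 (1.07), a calcium-binding protein of the endoplasmic reticulum. The DESeq2 adjusted p of the 10 ran from 1.23e-23 for EGFR to 3.46e-06 for RCN2.

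**Figure D2:**
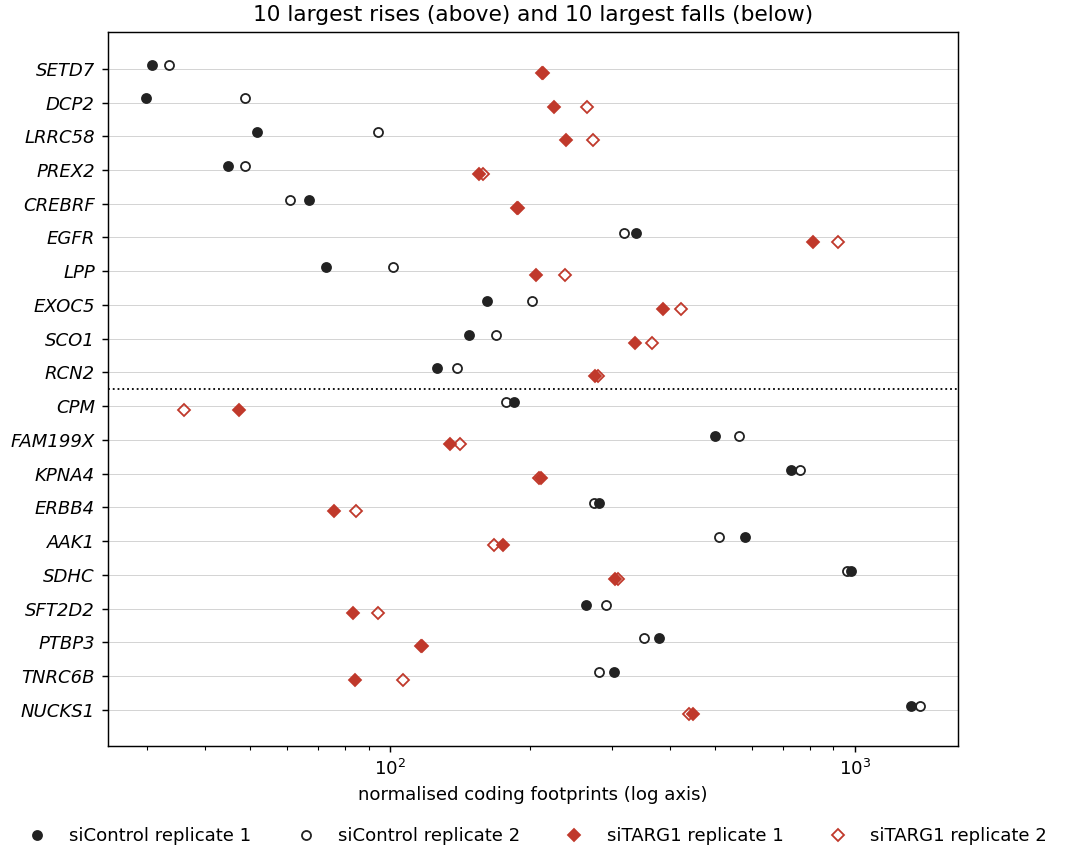
Normalised coding footprints (log axis) of the 10 largest rises and the 10 largest falls in siTARG1 cells. They are ranked among called members with a mean of at least 100 and groups that do not overlap. Black circles are siControl libraries and red diamonds siTARG1 libraries, filled for replicate 1 and open for replicate 2. As the selection required, the siTARG1 libraries of each of the 20 genes lie on one side of both siControl libraries. The genes run from SETD7 (30.8 and 33.4 against 214 and 213) to NUCKS1 (1322 and 1382 against 449 and 441).

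Members of 9 hand-written lists were counted next, to be read against 7.18% higher and 9.19% lower over all regions and 28.4% called over all members. Of 11 members on the list of small RNA and mRNA decay factors, 1 rose (DCP2) and 3 fell (TNRC6B, AGO1 and RC3H2). The median log2 fold change of the 11 was 0.36. AGO1, an Argonaute protein gene, fell from 181 and 176 to 94.1 and 120 normalised footprints (log2 fold change -0.75, SE 0.24, DESeq2 adjusted p = 0.016). Neither AGO1 nor RC3H2 kept its call with a replicate block (adjusted p = 0.094 and 0.067) or when any 1 of the 4 libraries was left out (0.11 to 0.50 and 0.090 to 0.53), so only DCP2 and TNRC6B held under these fits. AGO2 (0.59) and AGO3 (0.01) did not pass the test, nor did the deadenylase genes CNOT6L (0.56) and CNOT7 (-0.10). RC3H2, whose product binds stem-loops in mRNAs to be degraded, fell by 1.14 on the log2 scale. The list thus held the second largest rise and one of the 10 largest falls among called members with a mean of at least 100 normalised footprints.

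Of 11 members on the list of membrane traffic and small GTPase regulators, 5 fell and 1 rose, with a median of -0.44. Over all regions 9.19% were lower and 7.18% higher. The list left out the exocyst gene EXOC5, which rose (1.16), and the clathrin adaptor kinase gene AAK1, which fell (-1.67). EEA1, a tether of early endosomes, fell from 97.6 and 114 to 26.6 and 23.6 normalised footprints (log2 fold change -2.07, SE 0.37). The small GTPase genes RAB22A (-1.59) and RAB21 (-1.12), which also act at endosomes, TMEM33 (-1.09) and VAPA (-0.44), a contact-site protein of the endoplasmic reticulum, fell too. The member that rose, ANKRD52 (log2 fold change 0.65), was on this list although it encodes a regulatory subunit of a phosphatase that acts on Argonaute. RAB22A lost its call whichever library was left out (DESeq2 adjusted p = 0.084 to 0.18), and RAB21 in 3 of those 4 fits.

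In the list of receptor tyrosine kinase, PI3K, RAS and insulin signalling, 1 of 13 members rose (EGFR) and 2 fell (ERBB4 and the kinase gene RPS6KA3, -0.66). PIK3CA (0.44), a catalytic subunit of PI3K, did not pass the test. Of 14 ubiquitin ligases and deubiquitinases, 3 rose and 4 fell. Here USP46, a deubiquitinase gene, went from 121 and 142 to 18.3 and 19.1 normalised footprints (log2 fold change -2.81, SE 0.37), the lowest value of all members. CBL, the ligase that marks activated EGFR for degradation, rose from 46.6 and 42.9 to 145 and 132 (log2 fold change 1.62, SE 0.31). TRIM44 (-0.77) and MARCHF6 (-0.68) fell.

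Of 12 chromatin regulators, 4 rose and 1 fell, the latter CBX5 (-0.88), which encodes heterochromatin protein HP1 alpha. Besides SETD7, the tankyrase gene TNKS (0.79) and ASXL2 (0.58) rose. Of 26 transcription factors, 2 rose (CREBRF and SMAD5, 0.81) and 3 fell, with ELK4 (-1.14) and MEIS1 (-0.69) the larger of the falls. Of 8 members in TGF-beta, BMP, WNT and Notch signalling, 2 rose (SMAD5 and TNKS) and 1 fell, the BMP receptor gene BMPR2 (-1.35). Of 12 adhesion, matrix and cytoskeleton members, 2 rose (ITGB8, an integrin subunit, 1.06, and the actin-severing factor CFL2, 0.85) and 4 fell, led by SEPTIN11 (-0.89) and ENAH (-0.70). Of the 8 members on the list of RNA-binding and splicing regulators, 1 rose (CELF1, 0.45) and none fell. The list left out the splicing regulator PTBP3, which fell (-1.65). By count, the share called ran from 1 of 8 to 6 of 11, with few members per list, and no list was compared with another. ASXL2, ELK4, SMAD5, RPS6KA3 and CFL2 lost their calls whichever of the 4 libraries was left out.

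The share of regions called was higher at longer 3′ UTRs, though not at every step. Within the same coding lengths and footprint minimum, the siTARG1 comparison called 17.3% of regions with 1 to 500 nt, 16.1% with up to 1000 nt, 22.1% with up to 2000 nt, 25.6% with up to 3000 nt and 25.1% with over 3000 but under 5000 nt. Among members it called 24.5% of 237 with under 6000 nt, 29.6% of 199 with 6000 to under 8000 nt and 32.1% of 184 with 8000 nt and over. The median absolute log2 fold change went from 0.25 in the shortest class to 0.37 in the longest. Shares of called regions also depend on depth, so both kinds of region were set side by side in classes of total coding footprints. With 400 to under 800 footprints, 14.3% of 133 members were called and 4.85% of short 3′ UTR regions. With 800 to under 1600 the shares were 24.3% and 11.2%, with 1600 to under 3200 they were 33.3% and 17.8%, and with 3200 or more 42.8% and 29.9%. Members were called more often in each of these 4 classes. The difference between the 2 kinds of region was not tested, since regions are not replicates.

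**Figure D3:**
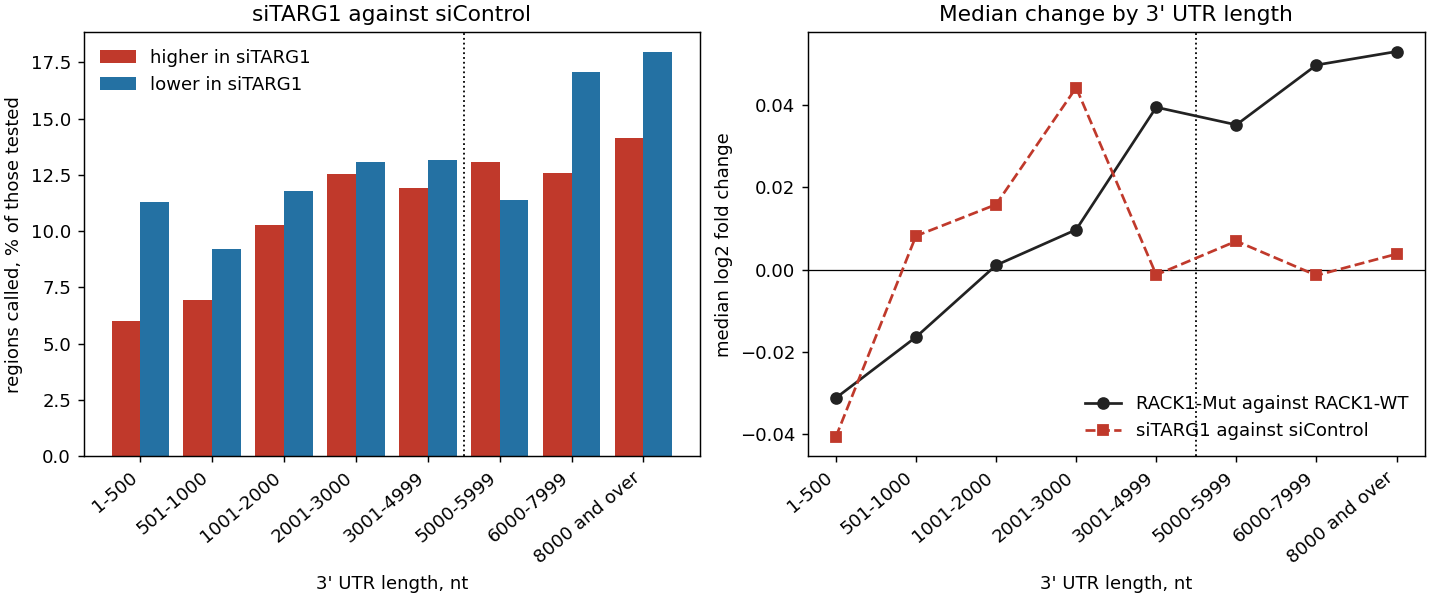
Regions with coding lengths over 450 and under 6000 nt and at least 400 footprints, by 3′ UTR length; members lie right of the dotted line. Left, the percent of regions called higher (red) or lower (blue) in siTARG1 cells, from 6.01% and 11.3% in the shortest class to 14.1% and 17.9% in the longest; right, the median log2 fold change of each class in both comparisons.

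Sites of the first word set were common in the long 3′ UTRs. Of 586 members, 347 (59.2%) held at least 1 site and the group had 0.137 sites per kb, while 50 of 1542 short 3′ UTR regions (3.24%) did, at 0.121 per kb. Over all 1058 regions with a 3′ UTR of at least 5000 nt that could be read, whatever their footprints, 59.2% held one. For the second set the shares were 68.9% of members, 4.54% of short 3′ UTR regions and 70.3% of all long 3′ UTRs, at 0.204 sites per kb in members and 0.173 in short 3′ UTR regions. Per length, the members thus held not many more sites than short 3′ UTRs, but far more per mRNA. SMAD2 had the most sites of the first set (8) and LPP of the second (9).

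Footprints in siTARG1 cells went down with the number of sites of the first set. The 239 members without a site had a median log2 fold change of 0.13, those with 1 site (192) -0.037, with 2 (95) -0.13, with 3 (38) -0.40, and with 4 or more (22) -0.68. Of the 22 members with 4 or more sites, 10 fell and none rose, whereas of the 239 without a site 14 fell and 44 rose. The second set ran the other way, and less steeply: the medians were -0.066 without a site (182 members), -0.019 with 1, 0.086 with 2, 0.13 with 3, and 0.17 with 4 or more (66 members). Of those 66 members, 14 rose and 3 fell. Below 4 sites the calls showed no such excess of rises. With 1 site 23 rose and 29 fell, with 2 sites 19 and 18, and with 3 sites 9 and 11. Without a site 15 rose and 28 fell. In the RACK1 comparison no such order was seen, with medians between -0.0073 and 0.092 over the classes of the first set and between 0.026 and 0.069 over those of the second. Short 3′ UTR regions showed the same signs. The 50 carriers of the first set had a median of -0.29, against -0.028 in regions without. The 70 carriers of the second had 0.29, against -0.047 in regions without. These values come from the libraries in which the word sets were picked, so they are no independent support.

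**Figure D4:**
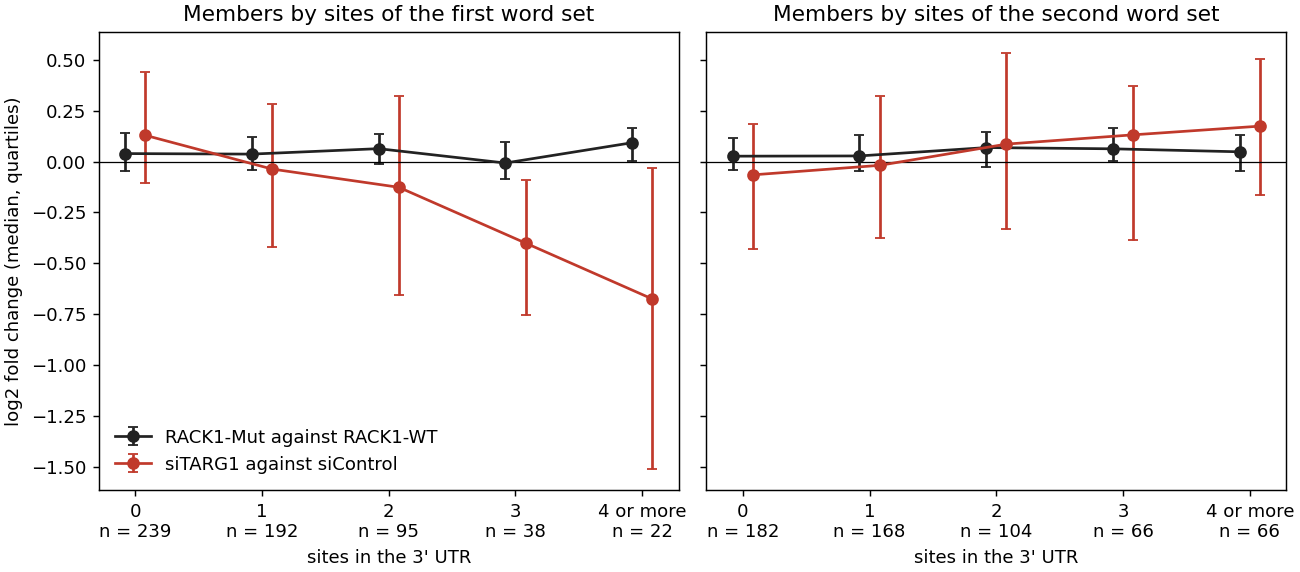
Median log2 fold change of members, with quartiles as bars, by the number of sites in the 3′ UTR of the first word set (TGAACAT or GAACATA, left) and the second (TGAATAT or GAATATA, right), for siTARG1 (red) and RACK1-Mut (black). In siTARG1 cells the medians run from 0.13 to -0.68 on the left and from -0.066 to 0.17 on the right, while the RACK1-Mut medians stay between -0.0073 and 0.092.

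When both sets were considered together, the 99 members with only the first set had a median log2 fold change of -0.24 (24 fell, 4 rose) and the 156 with only the second 0.16 (10 fell, 33 rose). The 83 members with neither had 0.066, with 4 falls and 11 rises. Among members with both sets, 23 fell and 4 rose of 59 with more first sites. With equal numbers 12 fell and 9 rose of 66, and with more second sites 16 fell and 19 rose of 123. The medians of these classes were -0.30, -0.050 and 0.065. Each library showed these differences. In members with only the first set, the median log2 ratio to the mean of the 4 libraries was 0.11 in both siControl libraries, while siTARG1 gave -0.10 and -0.093. In members with only the second it was -0.11 and -0.072 in siControl and 0.087 and 0.11 in siTARG1 libraries. Across the 586 members, which share libraries and an A- and T-rich base composition, the number of second minus first sites had a Pearson correlation of 0.37 and a Spearman correlation of 0.34 with the siTARG1 log2 fold change, and of 0.024 and 0.037 with the RACK1-Mut one.

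**Figure D5:**
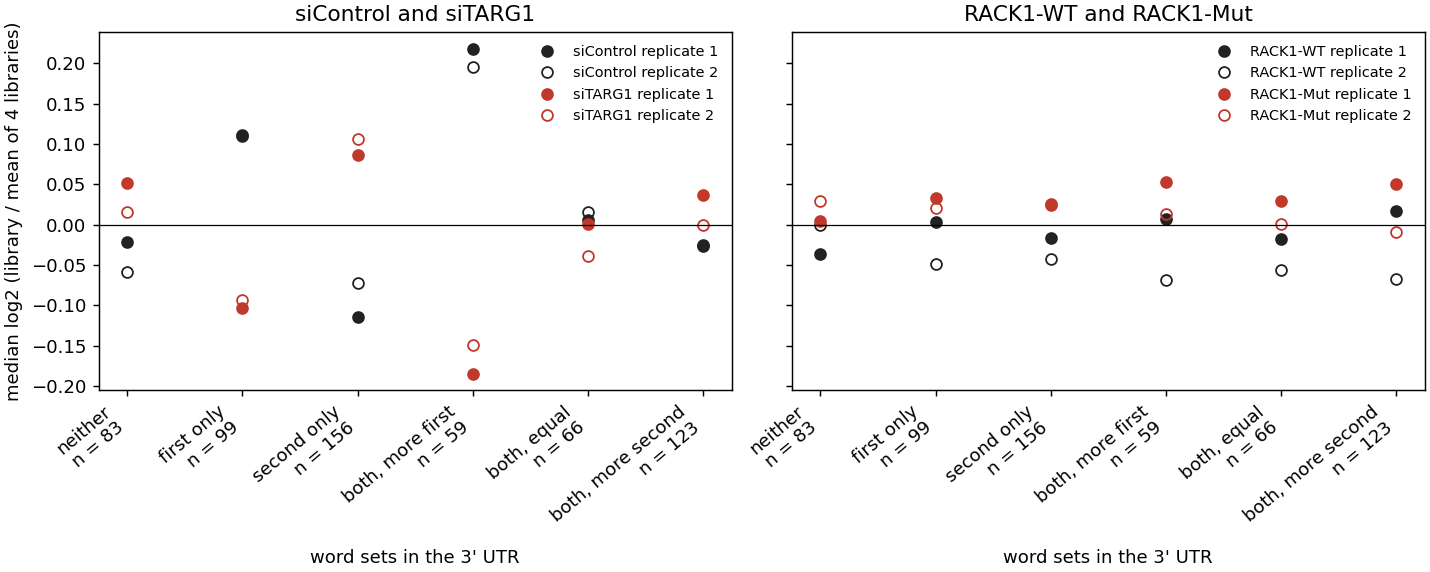
Median over members of the log2 ratio of each library to the mean of its 4 libraries, for members that hold neither word set, one of them or both; filled and open points are replicates 1 and 2. Left, siControl (black) and siTARG1 (red) libraries part in opposite directions for members with only the first set (0.11 against -0.10 and -0.093) and only the second (-0.11 and -0.072 against 0.087 and 0.11); right, RACK1-WT (black) and RACK1-Mut (red) libraries.

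Among the members that fell and could be read, 75 of 89 (84.3%) held the first set, against 36 of 80 (45.0%) of those that rose and 56.6% of the 417 not called. The second set was held by 65 of the 80 that rose (81.3%), 68.5% of those that fell and 66.7% of those not called. All 8 readable genes among the 10 largest falls held the first set, with 5 sites in TNRC6B, 4 in NUCKS1 and 3 in FAM199X, and 5 of them (CPM, KPNA4, ERBB4, TNRC6B and NUCKS1) held the second set too. Of the 10 largest rises, 9 held the second set, with 9 sites in LPP and 7 in DCP2, and 4 (DCP2, PREX2, LPP and EXOC5) held the first set too. EGFR, the exception, held neither. SMAD2, with 8 sites of the first and 6 of the second set, had 147 and 157 footprints in siControl and 195 and 199 in siTARG1 libraries, a log2 fold change of 0.37 that did not pass the test (DESeq2 adjusted p = 0.244).

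Sites of 10 microRNA families, broadly expressed or typical of epithelia, were counted beside the word sets. For each family the complement of bases 2 to 8 of the mature microRNA, from RefSeq sequences, was counted in the same 586 members: let-7 (CTACCTC), miR-200b (CAGTATT), miR-141 (CAGTGTT), miR-17 (GCACTTT), miR-15/16 (TGCTGCT), miR-21 (ATAAGCT), miR-26 (TACTTGA), miR-29 (TGGTGCT), miR-30 (TGTTTAC) and miR-19 (TTTGCAC). Between 32.8% (let-7) and 69.8% (miR-17) of members held a site, and over all long 3′ UTRs the shares were 33.6% and 68.0%. The median siTARG1 log2 fold change of carriers minus that of other members lay between -0.070 (let-7) and 0.11 (miR-15/16). The same difference was -0.24 for the first word set, outside that range, and 0.14 for the second, just above it. With the coding GC and length trend removed, the second set gave 0.092. The word sets had been picked for how footprints differed in siTARG1 cells, so a place outside the range of the families is no independent support. For RACK1-Mut the families ran from -0.022 to 0.023, with 0.012 for the first word set and 0.025 for the second.

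In the RACK1 comparison no member passed the test. At an adjusted p under 0.05 DESeq2 called 0 of 620, against 0.0799% of the 12520 regions tested, and edgeR's quasi-likelihood test called 1, against 30 of all regions. At an unadjusted p under 0.05 DESeq2 gave 10 members, or 1.61% against 1.64% of all regions, and edgeR 44, or 7.10% against 7.48%. By direction in DESeq2, 9 of the 10 members were higher in RACK1-Mut, against 80 of 205 over all regions and 9 of 48 short 3′ UTR regions. The member called by edgeR was NCAM1, a neural cell adhesion molecule gene. It had 346 and 328 normalised footprints in RACK1-WT and 245 and 231 in RACK1-Mut libraries, without overlap, and a log2 fold change of -0.51 (SE 0.16, DESeq2 adjusted p = 0.926, edgeR adjusted p = 0.0132). Among members with higher values in RACK1-Mut cells, the smallest unadjusted p-values belonged to AAK1 (279 and 265 against 350 and 365, log2 fold change 0.39), NAA50, an N-terminal acetyltransferase gene (0.28), and the small GTPase gene RAP1B (0.27). Among those with lower values, PDXK (-0.20) and CEP43 (-0.57) came after NCAM1. The DESeq2 adjusted p of these 5 genes was 1.00. AAK1 is thus among the 10 largest falls in siTARG1 cells and has the smallest p of a higher value in RACK1-Mut cells.

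As a group, members lay slightly higher in RACK1-Mut cells, except those with most footprints. Their median log2 fold change was 0.046, with 388 of 620 above 0, against -0.0017 over all regions and -0.031 in short 3′ UTR regions. By total coding footprints the median of members was 0.069 with 400 to under 800, 0.066 with 800 to under 1600, 0.035 with 1600 to under 3200, and 0.00018 with 3200 or more, where 69 of 138 members lay above 0. By 3′ UTR length the median went from -0.031 at 1 to 500 nt through 0.0011 at over 1000 and up to 2000 nt to 0.035, 0.050 and 0.053 in the 3 classes of members. By library, the median log2 ratio of members to the mean of the 4 libraries was -0.0022 and -0.046 in RACK1-WT and 0.031 and 0.015 in RACK1-Mut libraries, so the groups did not overlap, but the higher RACK1-WT library lay closer to both RACK1-Mut libraries than to the other RACK1-WT library. The spread between replicate libraries in this median was 0.024 (SD, pooled over both groups). Removing the dependence on GC content and length of the coding sequence left a median of 0.026. Of the lists, small RNA and mRNA decay factors had a median of 0.14 (11 members) and signalling members 0.10 (13), with none called, and adhesion, matrix and cytoskeleton members had -0.017 (12).

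The limits of the selection cut through a continuous range. Just inside the 3′ UTR limit lay MRPS23 (5002 nt, siTARG1 log2 fold change 0.16), a region of SHISA9 (5004 nt, -0.065) and KCTD12 (5005 nt, -1.23). Just outside lay GSPT1 (4991 nt, -0.090), ERLIN2 (4986 nt, -2.19) and SMCR8 (4985 nt, 0.17). At the footprint limit, a region without a symbol (400 footprints, -0.53), the same SHISA9 region (401) and PRICKLE2 (402, -0.11) were inside, and NT5DC3 (396, -2.24), ANKRD33B (395, 0.43) and PAQR3 (391, 1.66) outside. Their values spread in both directions on either side.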

How the data were processed

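The authors aligned clipped reads to transcripts with TopHat2 2.1.1 after discarding rRNA reads with Bowtie 1.1.2, per the labels and methods. They counted footprints of 26 to 36 nt over exons, 5′ UTRs, coding sequences and 3′ UTRs of merged regions on GRCh37 (GENCODE release 24). The deposited values are whole-number counts, assigned 14 nt from the 5′ end per the file headers, while the methods give 12 nt from the 3′ end. Whether reads with one molecular identifier were collapsed is not stated. The deposited RPKM values of the authors were not used. RNA-seq was not analysed here.

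Symbols, UTR bases and coordinates came from GENCODE release 44 lifted to GRCh37, and microRNA sequences from RefSeq (GRCh38.p14). DESeq2 1.42.0 (R 4.3.3) was fitted to coding counts of the 4 libraries of each comparison. Regions with at least 10 summed counts were tested. P-values were adjusted by Benjamini-Hochberg after the default filtering of DESeq2. This left an adjusted p for 11121 of 12056 regions in the siTARG1 and all 12520 in the RACK1 comparison. Normalised footprints are counts divided by DESeq2 size factors. A region without an adjusted p was not counted as called. Scripts were tested on simulated data. edgeR 4.0.16, other filters, scalings, member limits and left-out libraries were alternatives. Library medians used a pseudocount of 0.5. P-values rest on 2 libraries a group, with variance estimates that DESeq2 and edgeR moderate across regions. Annotated 3′ UTRs may be longer than those the cells use.

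Named members were, per comparison, the 10 largest rises and falls among called members with a mean of at least 100 and groups that do not overlap (where under 3, the 3 smallest p-values each way). Also named were the 5 longest 3′ UTRs, the 5 highest levels per kb, up to 4 called members of each list, the 3 neighbours of each limit and the targeted genes; further list members and site carriers were named after their values were seen. Members, lists and word sets were chosen with earlier results of these data known. Some members are not reported here by name.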

Additional observations from a re-analysis of the deposited data

How the results depend on the processing

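In the siTARG1 comparison the number of members called moved from 176 to 266 with edgeR (124 higher, 142 lower), which kept all 176, and to 113 with a replicate block (44 higher, 69 lower), all among the 176. Nothing in the labels says that same-numbered libraries were paired, and their deviations correlated at 0.031 (0.083 for RACK1). With the block 7 named genes no longer passed the test: RC3H2, AGO1, ASXL2, ELK4, SMAD5, RPS6KA3 and CFL2. Among fits with all 4 libraries, no other changed the call of a named member there. Leaving out 1 library gave 65 to 80 members called (65 without siControl replicate 1, 80 without siControl replicate 2, 66 without siTARG1 replicate 1, 68 without siTARG1 replicate 2), all among the 176, and 46 of the 172 fits of a named member without 1 library lost the call, none reversing; 28 of 43 named members kept it in all 4 fits and 8 in none. LRRC58 and CBX5 lost it without siTARG1 replicate 1, ITGB8 without siTARG1 replicate 2, CELF1 in 2 fits, and MEIS1, BMPR2 and RAB21 in 3. In the RACK1 comparison edgeR called 1 member, and every fit without 1 library called 0.

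The siTARG1 median of members was 0.011 with exon counts, 0.0094 with the coding GC and length trend removed, -0.0098 with at least 800 footprints, and -0.0038 to 0.014 without 1 library. That of short 3′ UTR regions was -0.047 with edgeR, -0.031 without the trend, -0.019 with 3′ UTRs of 1 to 1000 nt, and -0.043 to -0.036 without 1 library. The RACK1-Mut medians were 0.023 to 0.064 and -0.036 to -0.024 without 1 library.

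For carriers minus other members, the first set gave -0.23 with the replicate block, -0.23 without the trend, -0.34 with 8-letter sites, -0.20 with 6-letter sites, and -0.27 to -0.22 without 1 library. The second gave 0.11 with exon counts, 0.092 without the trend, 0.075 with 6-letter sites, and 0.10 to 0.14 without 1 library. For RACK1-Mut the ranges were -0.015 to 0.049 and -0.0086 to 0.050. The alternative with 3′ UTRs read to within 5 percent of their deposited length was added after seeing the data and moved none of these beyond the spread between replicates.

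The siTARG1 minus siControl share of coding footprints was -0.0027 percentage points without mitochondrial genes and the top 10 regions, against 0.039. As the median over members, 3′ UTR footprints per 100 coding footprints differed by 0.072 (siTARG1) and -0.082 (RACK1-Mut), against -0.029 and 0.0079 pooled. The causes were not tested. Members with few footprints limit these medians, since many held 0 or 1 in the 3′ UTR of a library.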
